A study of Mus musculus with 25 samples.

Results

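The genes described here are cyclins, cyclin-dependent kinases (CDKs) and CDK inhibitors of the mouse, chosen by name: the D-type cyclins Ccnd1, Ccnd2 and Ccnd3, the cyclins Ccne1, Ccna2 and Ccnb1, the kinases Cdk1 and Cdk2, and the inhibitors Cdkn1b and Cdkn2a. All 10 were found among the 35731 genes of the mESC count table and among the 24062 genes of the embryo count table. They were followed in v6.5 mouse embryonic stem cells (mESCs), where wild-type (WT) cells were compared with cells lacking Dot1L, the methyltransferase for histone H3 lysine 79. RNA came from 3 WT and 2 Dot1L knockout (KO) libraries, with no treatment of either. Peaks of H3K79me2 and H3K79me3, the dimethyl and trimethyl forms of that lysine, came from chromatin immunoprecipitation (ChIP) with antibodies ab3594 and ab2621, in 2 WT and 2 KO libraries per mark. The genes were also followed in 8-cell embryos of wild-type genotype from B6D2F1 mothers and Cast/EiJ fathers. Embryo RNA was collected 56 hours after fertilization from 2 pools that received the solvent DMSO and 2 pools that received SGC0946, a small-molecule inhibitor of Dot1L, with 30 to 35 embryos in a pool. Which stretch of Dot1l is deleted in the KO cells, and whether the KO replicates are separate clones or cultures, is not given in the sources used here, so p-values measure the spread between these libraries, which may be technical.

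Cyclins are regulatory subunits that rise and fall through the cell cycle and activate CDKs, which phosphorylate the proteins that carry a cell through DNA replication and division. D-type cyclins act with CDK4 and CDK6 and link growth signals to the retinoblastoma proteins, cyclin E and cyclin A drive CDK2 through S phase, and cyclin B with CDK1 starts mitosis. Inhibitors such as p27, the product of Cdkn1b, and p16, a product of Cdkn2a, hold this machinery back. Cdkn2a also encodes p19ARF, which acts on Mdm2 and p53 and does not inhibit CDKs. Mouse embryonic stem cells are known for a short G1 phase with high cyclin E and CDK2 activity and low D-type cyclin levels. Methylation of H3K79 is found over the 5' part of transcribed gene bodies.

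Depth was similar across libraries, with 26860527 to 33755064 estimated counts per mESC library and 24950199 to 32479590 counts per embryo library. RNA of Dot1l itself stood at 100.1 ± 3.79 CPM, or counts scaled to a common library total, in WT mESCs (SD, n = 3). In KO mESCs it stood at 76.5 ± 7.003 CPM (SD, n = 2), and the log2 fold change was -0.39. Counts over the whole gene do not check a deletion of part of it. For the marker counts that follow, rose and fell mean an adjusted p under 0.05 by edgeR's quasi-likelihood test. This held for 43.9% of the 19532 tested genes, against which these counts are to be read. Sums of markers use unadjusted library totals. Pluripotent cell markers summed to 4276 to 4365 CPM in WT and 4172 to 4209 CPM in KO libraries, but 2 of the 8 rose and 4 fell. Among them Nanog went from 495.7 to 243.6 CPM (log2 fold change -1.02) and Tdgf1 had a log2 fold change of 0.32. In the same fit, 6 of 8 tested endoderm markers rose and 0 fell, and their sum went from 74.3 to 78.0 CPM in WT libraries to 136.6 to 150.3 CPM in KO libraries. Of 9 tested fibroblast feeder markers, 5 rose and 0 fell, and their sum was 186.9 to 233.3 CPM in WT and 256.3 to 319.7 CPM in KO libraries, with 0 of the 10 listed markers at a count of 0. Of these endoderm markers Afp was at 0 in WT replicate 1 and at 1 count in WT replicates 2 and 3. Of 8 trophectoderm markers 4 rose and 2 fell, and of 7 tested mesoderm and neural markers 1 rose and 4 fell. The part of these other cells in the differences below was not tested. In bulk libraries such as these, fewer cells of a type and less RNA per cell cannot be told apart. CPM values are not divided by transcript length, so they are compared only within a gene. The exception is a range of WT levels used below to choose background genes for the marks.

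In KO mESCs the D-type cyclins moved in opposite directions: Ccnd1 fell and Ccnd2 rose, each by more than the spread between libraries. Ccnd1 (cyclin D1, ENSMUSG00000070348), on chromosome 7 from 144929931 to 144939831 of GRCm38.p6, was at 169, 166 and 153 CPM in the WT libraries and at 84.5 and 91.5 CPM in the KO libraries. Every KO library lay far below every WT library. Group means were 162.8 ± 8.40 CPM for WT (SD, n = 3) and 87.99 ± 4.95 CPM for KO (SD, n = 2), so that Ccnd1 fell by 45.9%. On the log2 scale the difference was -0.89 (SE 0.05), at an adjusted p of 5.1e-08 by edgeR's quasi-likelihood test with Benjamini-Hochberg adjustment over all tested genes, and it was the largest change among the 10 genes in mESCs. Ccnd2 (cyclin D2, ENSMUSG00000000184), on chromosome 6 from 127125162 to 127152188, was at 50.4, 49.6 and 43.1 CPM in WT and at 72.0 and 67.7 CPM in KO libraries. The groups did not overlap, and the mean rose from 47.7 ± 4.03 to 69.8 ± 3.04 CPM (log2 fold change 0.55, SE 0.06, adjusted p = 1.8e-05). Ccnd2 shares 2.8 kb with the noncoding RNA gene 9330179D12Rik, and Ccnd1, Ccnd3 and Ccna2 also overlap a neighbouring gene. Whether counting used strand is not given in the sources used here.

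Ccnd3 (cyclin D3, ENSMUSG00000034165), on chromosome 17 from 47505051 to 47599689, showed a smaller difference that depended on the settings. It was at 192, 178 and 176 CPM in WT and at 163.2 and 163.1 CPM in KO libraries. The KO libraries lay below all WT libraries, of which replicate 1 was the highest. Its log2 fold change of -0.16 (SE 0.05) had an adjusted p of 0.0145. This call was lost without WT replicate 1 (log2 fold change -0.12, adjusted p = 0.0787) and with upper-quartile scaling (log2 fold change -0.09, adjusted p = 0.124).

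Of the cyclins of S phase and mitosis, Ccne1 and Ccnb1 fell in KO mESCs, and no difference in Ccna2 was detected. Ccne1 (cyclin E1, ENSMUSG00000002068), on chromosome 7 from 38097984 to 38107490, was at 157, 152 and 146 CPM in WT and at 116.5 and 134.1 CPM in KO libraries. The groups did not overlap, although KO replicate 2 lay nearer to the WT libraries than KO replicate 1 did. The mean went from 151.3 ± 5.35 to 125.3 ± 12.5 CPM (log2 fold change -0.27, SE 0.06, adjusted p = 0.00201). Without KO replicate 1 the log2 fold change was -0.175. Ccnb1 (cyclin B1, ENSMUSG00000041431), on chromosome 13 from 100778739 to 100786486, was at 401.5, 408.3 and 413.4 CPM in WT and at 330.4 and 346.5 CPM in KO libraries. The WT libraries lay close together and well above both KO libraries. Its log2 fold change of -0.27 (SE 0.04) had an adjusted p of 1.0e-04. The pseudogene Ccnb1-ps, which could share reads with Ccnb1, held 0 to 3 counts per library.

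Ccna2 (cyclin A2, ENSMUSG00000027715), on chromosome 3 from 36564865 to 36573038, was at 232, 242 and 229 CPM in WT and at 228 and 249 CPM in KO libraries. The KO libraries were the lowest and the highest of the 5, so the groups overlapped. The log2 fold change was 0.02 with a 95% confidence interval of -0.077 to 0.125 and an adjusted p of 0.708.

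Of the kinases, Cdk2 fell and Cdk1 was not called. Cdk2 (ENSMUSG00000025358), the partner of cyclins E and A, lies on chromosome 10 from 128697938 to 128705051. It was at 90.8, 86.7 and 88.4 CPM in WT and at 68.2 and 66.5 CPM in KO libraries. Both groups were tight and far apart, with means of 88.6 ± 2.04 and 67.4 ± 1.21 CPM (log2 fold change -0.40, SE 0.05, adjusted p = 1.9e-05). The whole span of Cdk2 lies within that of Pmel, a pigment cell gene, which was at 12.0 CPM in WT and 9.52 CPM in KO mESCs (log2 fold change -0.33, adjusted p = 0.00607). Reads from the shared stretch may have been assigned to either gene. Cdk1 (ENSMUSG00000019942), the kinase that starts mitosis, lies on chromosome 10 from 69335146 to 69352912. It was at 174, 181 and 174 CPM in WT and at 165 and 167 CPM in KO libraries. The KO libraries lay just below the WT libraries, with a log2 fold change of -0.08, a 95% confidence interval of -0.172 to 0.004 and an adjusted p of 0.114.

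The inhibitors also moved in opposite directions, with Cdkn1b higher and Cdkn2a lower in KO mESCs. Cdkn1b (ENSMUSG00000003031), which encodes p27, an inhibitor of cyclin-CDK2 complexes, lies on chromosome 6 from 134920401 to 134925525. It was at 31.9, 33.0 and 31.0 CPM in WT and at 45.4 and 41.6 CPM in KO libraries. Both KO libraries lay above all WT libraries, and the mean rose from 31.95 ± 1.01 to 43.5 ± 2.69 CPM (log2 fold change 0.44, SE 0.06, adjusted p = 3.7e-05). Cdkn2a (ENSMUSG00000044303), on chromosome 4 from 89274473 to 89294619, was at 13.95, 12.8 and 12.0 CPM in WT and at 9.76 and 7.31 CPM in KO libraries. Again the groups did not overlap, but the KO replicates differed more from each other, in relative terms, than the WT replicates did. Its log2 fold change of -0.60 (SE 0.12) had an adjusted p of 0.00116, and it was -0.82 without KO replicate 1 and -0.40 without KO replicate 2. The gene-level count cannot tell apart the transcripts for p16 and p19ARF, which begin at different start sites.

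**Figure D1:**
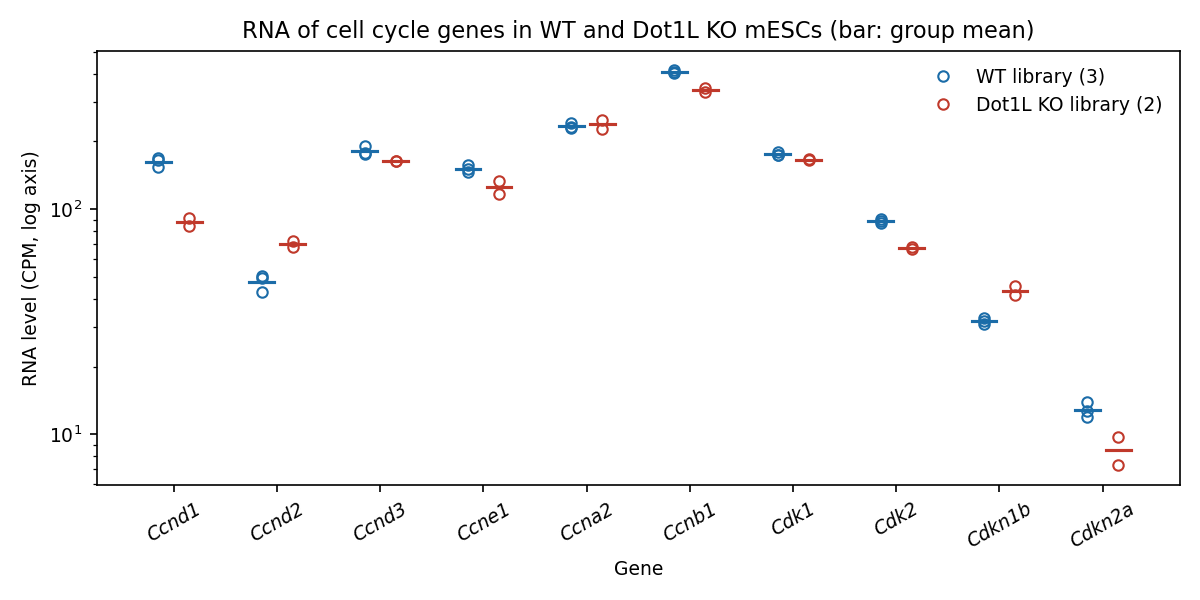
RNA level in CPM on a log axis (y) for each of the 10 genes (x) in mESCs, with 1 point per library and a bar at the mean of the 3 WT or 2 Dot1L KO libraries. The KO points of Ccnd1 lie at 84.5 and 91.5 CPM, under all WT points, and those of Ccna2 lie on both sides of the WT points.

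With genes called where the adjusted p was under 0.05, KO mESCs gave 8 calls among the 10 genes, of which 2 rose and 6 fell. In the same fit 43.9% of the 19532 tested genes were called, of which 4351 rose and 4221 fell. A share of calls among genes of similar RNA level was not computed. Over the lists of cell type markers, the share called ran from 14.3% to 75%. The CPM ranges of the groups did not overlap for 9 of the 10 genes, against 62.5% of all tested genes. The median log2 fold change was -0.21 over the 10 genes and 0.0008 over all tested genes. With upper-quartile scaling 63.5% of the called genes of the whole table were higher, against 50.8% with the scaling used here, and the median of all genes moved by 0.067. The directions of the 8 called genes were the same with both scalings, with Ccnd3 no longer called.

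A wider list of 69 other cell cycle genes showed changes in each direction. Of the 68 that were tested, 14 rose and 26 fell, or 58.8% called, with a median log2 fold change of -0.09. This split moved with the scaling, to 17 higher and 15 lower with upper-quartile scaling. Among the 8 other cyclins, 2 rose and 2 fell. Ccng2, an atypical cyclin known to be raised in cells that leave the cycle, was at 22.8 ± 1.14 CPM in WT and 54.4 ± 8.06 CPM in KO libraries (log2 fold change 1.25, adjusted p = 7.1e-08). Among the 8 other CDKs and their activating subunits, 1 rose and 5 fell. Cdk4, a kinase partner of the D-type cyclins, went from 307.1 ± 1.71 to 242.1 ± 8.11 CPM (log2 fold change -0.34), and its relative Cdk6 from 38.2 ± 1.00 to 47.8 ± 4.38 CPM (log2 fold change 0.32). Of the 5 other CDK inhibitors, 3 rose and 0 fell, among them Cdkn1c and Cdkn2d with log2 fold changes of 0.33 each.

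The counts of these groups are to be read against the 43.9% of all tested genes that were called. Of 7 tested genes for the turnover of cyclins and inhibitors, 5 fell and 0 rose. Cul1, the scaffold of the SCF ubiquitin ligase, went from 164.1 ± 4.03 to 110.4 ± 13.1 CPM (log2 fold change -0.57, adjusted p = 8.7e-06). Of 12 genes for replication licensing and origin firing, 6 fell and 0 rose, or 50% called, among them Cdc6, which loads the MCM helicase, with a log2 fold change of -0.32. The 13 genes of the Rb and E2F families gave 3 higher and 3 lower, with E2f2 at a log2 fold change of 0.35 and E2f3 at -0.32. Of 5 genes that set the phosphorylation of CDK1 and CDK2, 1 rose and 2 fell, including Wee1, a kinase that inhibits CDK1, at 94.5 ± 0.69 CPM in WT and 71.8 ± 2.28 CPM in KO libraries. Of 10 genes of mitosis and proliferation, among them mitotic kinases and checkpoint genes, 4 rose and 3 fell. Across the 5 mESC libraries, the listed genes whose log2 CPM followed Ccnd1 most closely were Ccnh (Pearson r = 0.997) and Wee1 (r = 0.997). Those closest to Cdkn2a were Cdk5 (r = 0.963) and Cdt1 (r = 0.958). These are the highest of 68 values per gene over libraries that differ by genotype, given as a description.

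In WT mESCs, H3K79me2 peaks lay over 8 of the 10 genes in both ChIP replicates, and H3K79me3 peaks over 5. Of 18555 tested genes with a known position, 44.4% were marked by H3K79me2 in this way and 11.2% by H3K79me3. Among the 8611 of these genes whose WT RNA level lay within the range of the 10 genes, the shares were 79.9% and 16.7%. That range was set in CPM not divided by length. The peaks were called by the authors separately for each library, and the fold enrichment and q-value of a peak are theirs. The WT lists held 66834 and 64084 H3K79me2 peaks in replicates 1 and 2, but 19800 and 7338 H3K79me3 peaks. H3K79me3 peaks lay over 7 of the 10 genes in replicate 1 and over 5 in replicate 2. Less H3K79me3 in replicate 2 at a gene is to be read against its shorter list. The KO peak lists held 16 and 12 H3K79me2 peaks and 178 and 328 H3K79me3 peaks in the whole genome, and 0 lay over any of the 10 genes or within 2 kb of them.

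Cdk1 carried the widest marks of the 10 genes. H3K79me2 peaks covered 78.7% and 69.3% of its span in WT replicates 1 and 2. Its H3K79me2 peak of lowest q-value was 11.5 and 11.6 kb long, with a fold enrichment of 13.6 and 12.7. Mean H3K79me2 coverage of 13.1 kb was at the 82.5th percentile of all marked genes. H3K79me3 covered 29.3% and 21.2% of Cdk1, with a top fold enrichment of 8.11 and 8.24. Ccnb1, which acts with Cdk1, was covered over 61.0% and 52.4% by H3K79me2 and over 27.8% and 17.3% by H3K79me3. Ccnd1 was covered over 43.5% and 46.4% by H3K79me2, with 4 peaks in each replicate, and over 13.2% and 2.28% by H3K79me3. For Ccne1, H3K79me2 coverage was 42.7% and 41.5%, and it held no H3K79me3 peak. Ccna2 was covered over 35.4% and 31.4% by H3K79me2 and over 14.6% and 4.85% by H3K79me3.

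Peaks covered a smaller share of Cdkn1b and Ccnd3, and in replicate 2 of Cdk2. Cdk2 was covered over 35.0% and 21.6% by H3K79me2, and all of its peaks also lie inside Pmel. Cdkn1b was covered over 18.7% and 14.3%, with a top fold enrichment of 2.81 and 4.20, and H3K79me3 peaks lay over it in replicate 1 only. Ccnd3 has the longest span of the 10 genes and held 11 and 10 H3K79me2 peaks, which together covered 7.49% and 6.36% of it. In length this was 6.55 kb as the mean of the replicates, which among the 10 genes was exceeded only at Cdk1. The peaks of lowest q-value began 27 and 78 bp past its downstream start site at 47593467. H3K79me3 peaks covered 0.604% of Ccnd3 on average. Ccnd2 and Cdkn2a held no H3K79me2 peak in either WT replicate. The H3K79me3 peak at Ccnd2, in replicate 1 only, lies in the stretch shared with 9330179D12Rik. Cdkn2a held no peak of either mark.

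**Figure D2:**
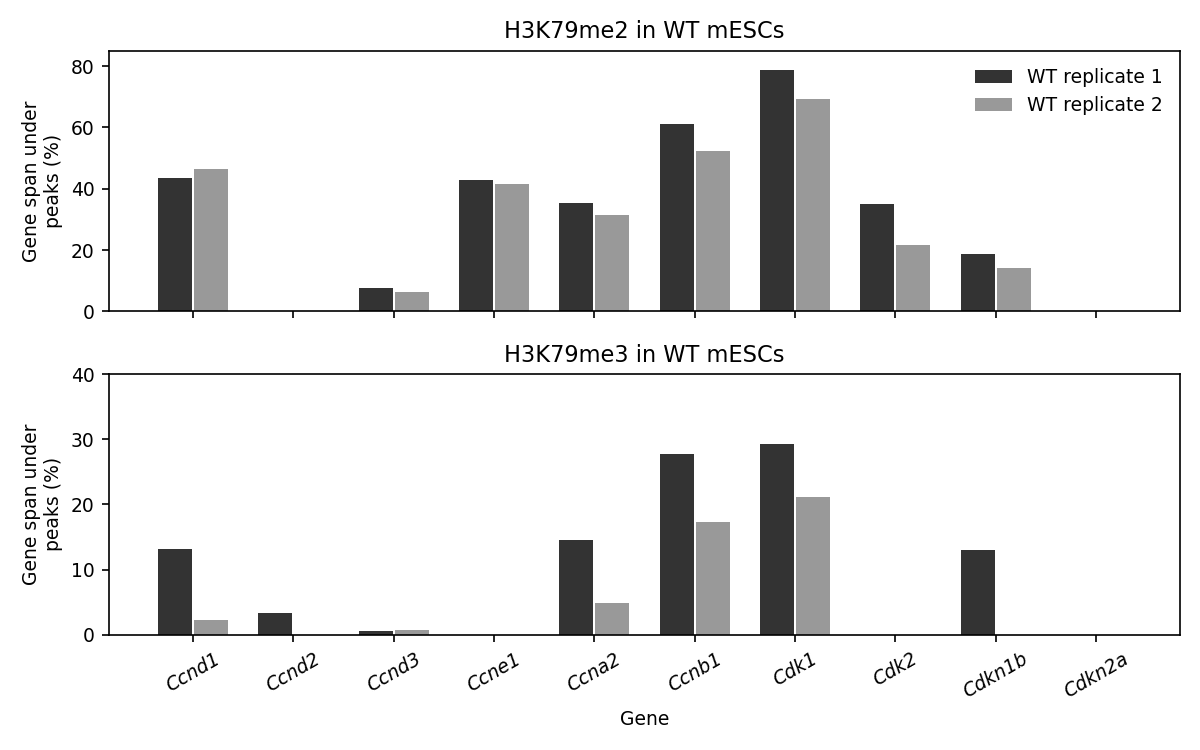
Share of each gene's span, in percent (y), under H3K79me2 peaks (upper panel) and H3K79me3 peaks (lower panel) for the 10 genes (x), with 1 bar per WT mESC replicate. Cdk1 has the highest H3K79me2 share at 78.7% and 69.3%, and Ccnd2 and Cdkn2a are at 0% for that mark.

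**Figure D3:**
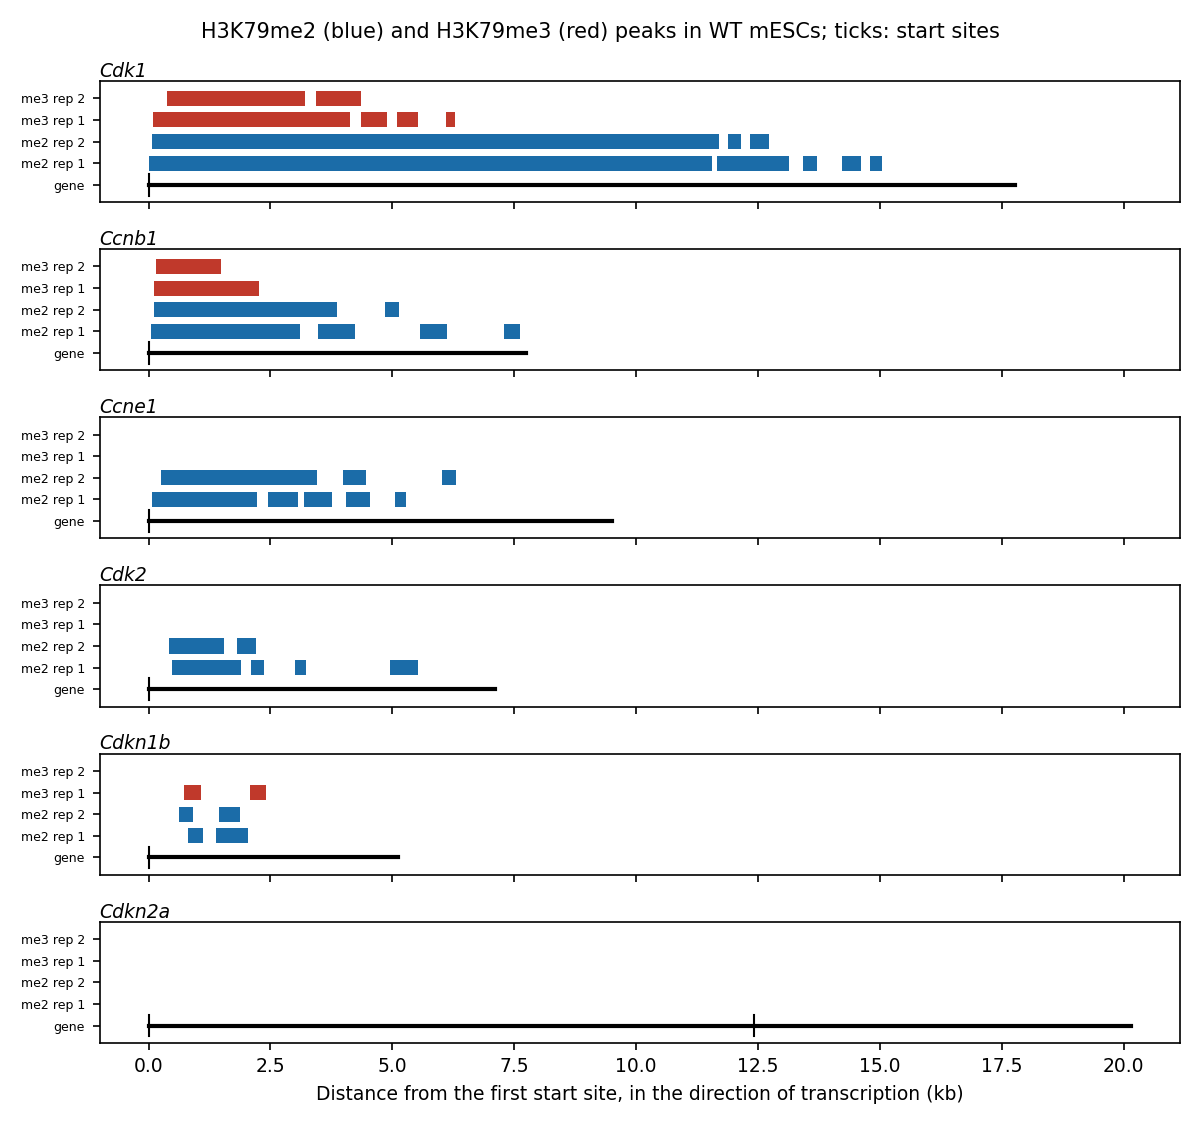
WT peaks along Cdk1, Ccnb1, Ccne1, Cdk2, Cdkn1b and Cdkn2a, drawn by distance from the first start site in kb (x) with a row for each mark and replicate (y). Blue bars are H3K79me2 peaks, red bars H3K79me3 peaks and ticks start sites, and the Cdk1 H3K79me2 peak nearest the start runs for 11.5 and 11.6 kb.

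At Cdk1, Ccnb1, Ccne1, Cdk2 and Cdkn1b, which have an annotated strand, the nearest H3K79me2 peaks began inside the gene. The H3K79me2 peak nearest to the start began 16 and 66 bp away at Cdk1, 42 and 103 bp at Ccnb1 and 64 and 264 bp at Ccne1, in replicates 1 and 2. At Cdk2 the distances were 479 and 409 bp and at Cdkn1b 804 and 623 bp. RefSeq promoter windows of GRCm38.p6, which run from 250 bases before a start to 50 bases after it, were found for 7 of the 10 genes, with 9 windows in all. Ccnd1, Ccnd2 and Ccna2 had no entry. Peaks covered at most 34 of the 300 bases of a window. The 250 bases before the start are printed here for Cdk1 and Ccnb1, which had the largest share of their span marked, for Cdkn1b, which was marked and rose, and for both start sites of Cdkn2a, which was not marked. Each runs 5' to 3' on the gene's strand, and capitals mark a CCAAT box (CCAAT), a cell cycle homology element (TTTGAA) or an E2F-like motif (TTTNNCGC) on either strand, so that ATTGG is a CCAAT box on the other strand.
Cdk1, chr10:69352913-69353162, minus strand: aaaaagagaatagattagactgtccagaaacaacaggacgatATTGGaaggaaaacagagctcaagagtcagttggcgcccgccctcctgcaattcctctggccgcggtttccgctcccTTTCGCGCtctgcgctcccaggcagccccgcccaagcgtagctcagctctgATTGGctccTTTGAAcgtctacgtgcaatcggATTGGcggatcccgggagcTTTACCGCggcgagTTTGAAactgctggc
Ccnb1, chr13:100786487-100786736, minus strand: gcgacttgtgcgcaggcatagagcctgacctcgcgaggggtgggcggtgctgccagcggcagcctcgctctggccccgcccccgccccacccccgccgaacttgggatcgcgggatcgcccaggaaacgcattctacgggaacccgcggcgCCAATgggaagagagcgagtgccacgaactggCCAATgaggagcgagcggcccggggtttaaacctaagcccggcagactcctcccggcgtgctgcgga
Cdkn1b, chr6:134920151-134920400, plus strand: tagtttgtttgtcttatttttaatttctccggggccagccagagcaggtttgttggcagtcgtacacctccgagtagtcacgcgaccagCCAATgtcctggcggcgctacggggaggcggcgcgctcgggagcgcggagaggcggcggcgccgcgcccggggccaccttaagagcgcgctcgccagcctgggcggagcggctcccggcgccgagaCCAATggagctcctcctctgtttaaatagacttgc
Cdkn2a upstream start site, chr4:89294620-89294869, minus strand: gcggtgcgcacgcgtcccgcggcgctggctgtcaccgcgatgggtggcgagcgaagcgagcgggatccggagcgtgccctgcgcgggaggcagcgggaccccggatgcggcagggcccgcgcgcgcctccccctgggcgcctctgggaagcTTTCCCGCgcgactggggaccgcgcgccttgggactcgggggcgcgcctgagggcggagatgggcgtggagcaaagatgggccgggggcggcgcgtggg
Cdkn2a downstream start site, chr4:89282193-89282442, minus strand: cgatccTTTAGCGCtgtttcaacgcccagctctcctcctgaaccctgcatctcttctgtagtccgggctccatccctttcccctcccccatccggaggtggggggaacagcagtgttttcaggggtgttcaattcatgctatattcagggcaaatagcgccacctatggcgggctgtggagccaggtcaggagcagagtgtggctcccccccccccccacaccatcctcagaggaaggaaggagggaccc

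The window of Cdk1 held the most matches, with CCAAT at 208, 80 and 48 bases before the start, TTTGAA at 71 and 15 bases and the E2F-like motif at 131 and 29 bases. Ccnb1 held CCAAT at 99 and 67 bases and Cdkn1b at 161 and 35 bases before the start. Cdkn2a held an E2F-like match 99 bases before the upstream start and another 244 bases before the downstream start. Of the windows not printed, Cdk2 held CCAAT and the E2F-like motif, the downstream window of Ccnd3 held CCAAT, and Ccne1 held none of these letters. Among all 32851 mouse windows of the table, 33.8% held CCAAT, 16.0% TTTGAA and 4.28% the E2F-like motif. A match is a description of the letters and not evidence of binding.

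Set side by side, the extent of the mark and the size of the RNA difference did not run in one order among these genes. Of the 8 genes with H3K79me2 in both WT replicates, 5 were lower, 1 was higher and 2 were not called in KO mESCs. The higher gene was Cdkn1b, whose H3K79me2 peaks in WT replicate 1 reached a −log10 q of at most 2.95. It was not marked when a −log10 q of at least 3 was asked for. Ccnd3, among the lower genes, was not marked when 10% of its span had to be covered. Cdk1, with the widest mark, was among those not called. Of the 2 genes without an H3K79me2 peak, Ccnd2 rose and Cdkn2a fell. In the same fit 43.9% of all tested genes were called, with 4351 higher and 4221 lower. These shares were not computed over all marked genes, and no test was made of this relation.

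In 8-cell embryos treated with SGC0946, none of the 10 genes was called by edgeR. DESeq2 called none of the 7 to which it gave an adjusted p, and gave none to Ccnd2, Cdkn1b and Cdkn2a. The spread between pools was wide, with a biological coefficient of variation of 0.442 in embryos against 0.0467 in mESCs. edgeR called 0% of the 14351 tested genes, although 1169, or 8.15%, had an unadjusted p under 0.05. DESeq2 called 126 genes in all. Without SGC0946 replicate 2 edgeR called 365, none of them among the 10. Of the 10, 1 had an unadjusted p under 0.05. The CPM ranges of the groups did not overlap for 3 of the 10, Ccnd2, Ccne1 and Cdk1, against 39.2% of all tested genes. The median log2 fold change was -0.09 over the 10 genes and 0.01 over all tested genes. Pluripotent cell markers summed to 1417 to 1472 CPM with DMSO and 1026 to 1130 CPM with SGC0946, with 0 of 8 called. The groups did not overlap for 7 of these 8, against 39.2% of all tested genes. An unadjusted edgeR p under 0.05 was found for 4, against 8.15%. Markers of cumulus and granulosa cells, which surround the egg, summed to 0.893 to 1.80 CPM, with 5 or 6 of the 8 at 0 in each pool. Fibroblast markers summed to 0.962 to 9.69 CPM, with 5 to 8 of the 10 at 0 in each pool. The highest sum, in DMSO replicate 1, came mostly from Pdgfrb. That gene had 225 counts there and 0 to 10 counts in the other pools. The part of these differences in the values below was not tested.

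Ccnd1 and Ccnd2 varied widely between embryo pools, and Ccnd3 less so. Ccnd1 was at 29.9 and 8.93 CPM in the DMSO pools and at 19.1 and 20.5 CPM in the SGC0946 pools. Both SGC0946 pools lay between the DMSO pools, and the log2 fold change was 0.03 with a standard error of 0.43. Without DMSO replicate 1 it was 1.15 and without DMSO replicate 2 it was -0.59. Ccnd2 was at 2.32 and 1.09 CPM with DMSO and at 6.10 and 3.32 CPM with SGC0946, from 63, 29, 160 and 109 counts. Both SGC0946 pools lay above both DMSO pools, but the log2 fold change of 1.46 had a 95% confidence interval of -0.105 to 3.02 and an adjusted p of 0.645. Ccnd3 was at 73.4 and 64.5 CPM with DMSO and at 67.5 and 80.2 CPM with SGC0946. The groups overlapped, with a log2 fold change of 0.10 and an adjusted p of 0.960.

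The cyclins of S phase and mitosis had many counts in embryos. Ccne1 was at 397.5 and 376.5 CPM with DMSO and at 311 and 318 CPM with SGC0946. Both SGC0946 pools lay below both DMSO pools, with means of 387 ± 14.9 and 314.5 ± 4.94 CPM (SD, n = 2 each). Its log2 fold change of -0.30 (SE 0.12) had an unadjusted edgeR p of 0.0269 and an adjusted p of 0.536. Ccna2 was at 394 and 459 CPM with DMSO and at 387 and 404 CPM with SGC0946, and Ccnb1 was at 576 and 510.2 CPM and at 421 and 559 CPM. The groups of both genes overlapped, with log2 fold changes of -0.11 (adjusted p = 0.898) and -0.15 (adjusted p = 0.861).

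**Figure D4:**
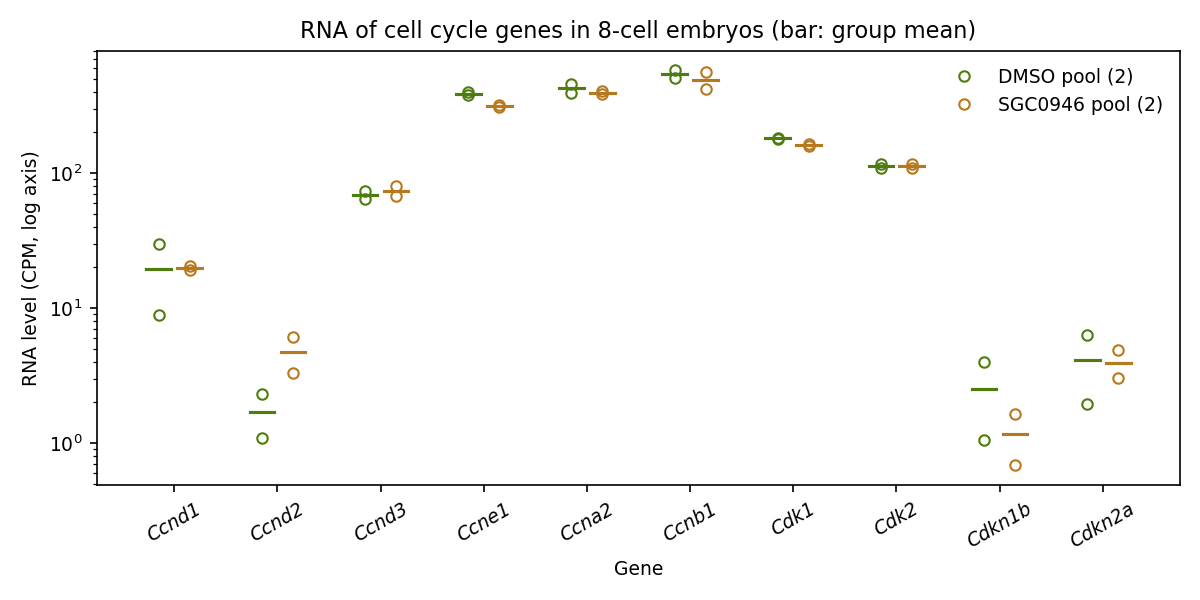
RNA level in CPM on a log axis (y) for each of the 10 genes (x) in 8-cell embryos, with 1 point per pool and a bar at the mean of the 2 DMSO or 2 SGC0946 pools. The SGC0946 points lie above the DMSO points for Ccnd2 and below them for Ccne1 and Cdk1, and the groups of the other genes overlap.

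Cdk1 was at 180.1 and 183 CPM with DMSO and at 159 and 164 CPM with SGC0946. The groups did not overlap, but the log2 fold change of -0.17 (SE 0.14) had an adjusted p of 0.819. Cdk2 was at 117 and 108 CPM with DMSO and at 109 and 116 CPM with SGC0946, and its mean was nearly the same in both groups (adjusted p = 1.0). The inhibitors had few counts, with 18 to 108 counts per pool for Cdkn1b and 53 to 168 for Cdkn2a. Cdkn1b was at 3.98 and 1.05 CPM with DMSO and at 0.686 and 1.64 CPM with SGC0946. Cdkn2a was at 1.95 and 6.33 CPM with DMSO and at 3.01 and 4.87 CPM with SGC0946. The groups of both genes overlapped, and a difference was not detectable at this depth and spread.

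**Figure D5:**
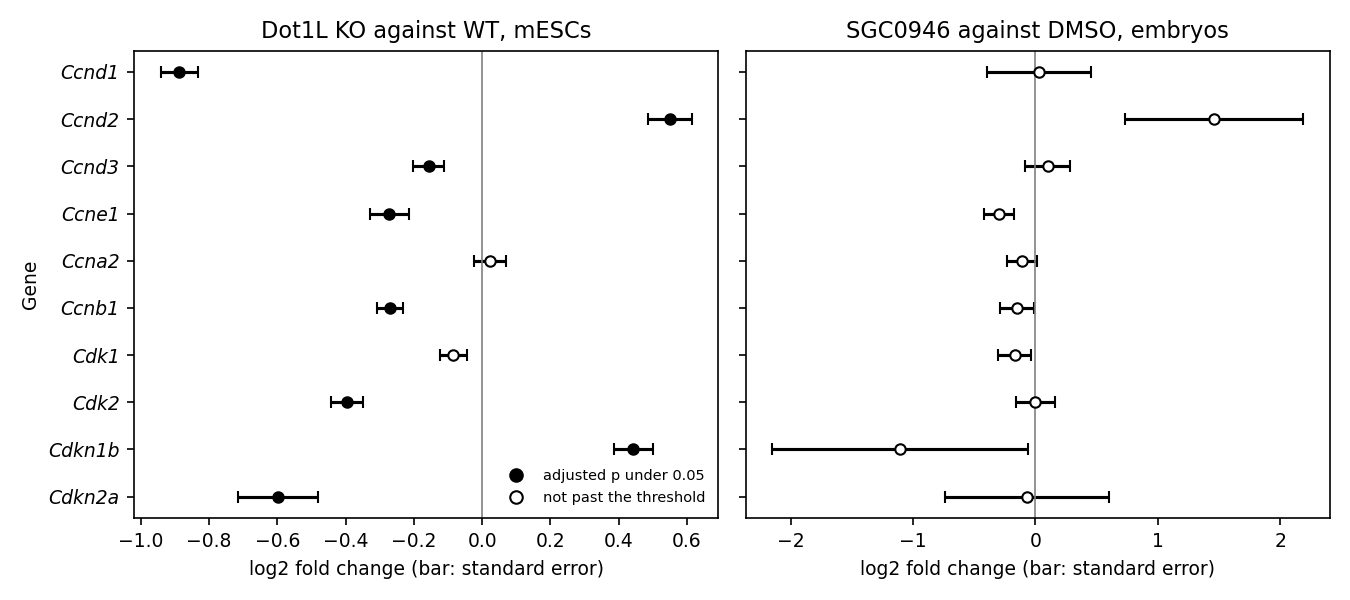
Log2 fold change (x) of each of the 10 genes (y) in KO against WT mESCs (left) and in SGC0946 against DMSO embryos (right), with bars for the standard error and filled points for an adjusted p under 0.05. The axes differ in scale. In mESCs 8 points are filled and Ccnd1 lies farthest from 0 at -0.89, and in embryos none is filled and Ccnd2 and Cdkn1b have the longest bars.

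Of the 69 other cell cycle genes, 67 were tested in embryos and 0 were called by edgeR, with a median log2 fold change of 0.005. Of the 67, 16 had an unadjusted edgeR p under 0.05, against 8.15% of all tested genes. These lists were chosen with earlier results of these data known. DESeq2 called 1, Btrc, and edgeR without SGC0946 replicate 2 called 8. The lowest p belonged to Btrc, an F-box protein that targets proteins for degradation, at 204.4 ± 20.02 CPM with DMSO and 134.5 ± 19.0 CPM with SGC0946 (log2 fold change -0.60, adjusted p = 0.332). Cdkn1a, which encodes the inhibitor p21, was at 53.1 ± 5.02 and 82.9 ± 4.50 CPM (log2 fold change 0.64, adjusted p = 0.372). E2f5, an E2F factor, was at 8.14 ± 4.00 and 19.7 ± 4.07 CPM, Aurka, a mitotic kinase, at 339.3 ± 19.5 and 246.1 ± 48.1 CPM, and Mcm7, a subunit of the replicative helicase, at 171.8 ± 6.98 and 129.2 ± 7.53 CPM. Whether the responses of mESCs and embryos differ was not tested, since the tables differ in cells, perturbation, kit and counting.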

How the data were processed

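The series holds 25 libraries, of which the ChIP input libraries were not used here. For mESC RNA the authors deposited expected counts, estimated per Ensembl gene, with kallisto and mm10 named in the submitters' processing notes, and 59.2 to 59.9% of its values per library were whole numbers. For embryo RNA they deposited whole counts by gene symbol, with STAR, HTSeq and mm10 named in those notes. The notes also name STAR and HTSeq for 4 of the 5 mESC libraries. The deposited peak lists, for which the notes name Bowtie2 and MACS2, give a fold enrichment (ratio) and a −log10 q per peak, per library, and hold no depth. Strandedness of counting is not given in the sources used here. In the mESC table, 69 rows without a symbol held at most 0.0163% of counts.

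Estimated counts were rounded to whole numbers. Each table was fitted alone with edgeR 4.0.16 in R 4.3.3 (filterByExpr, TMM, quasi-likelihood F test, Benjamini-Hochberg adjustment over all tested genes, called at an adjusted p under 0.05). Scripts were tested on simulated data. A gene was marked where its RefSeq span (GRCm38.p6, the same assembly as mm10) shared 1 bp or more with a peak in both WT lists. Alternatives were DESeq2 1.42.0, other scalings and filters, a replicate block and leaving out each library. Replicate libraries differed by more than sampling noise. The 10 genes and all lists were chosen with earlier results of these data known. Of the other cell cycle genes, the text names the 10 called genes with the largest change (mean over 1 CPM, no overlap of groups), or, where none was called, the 5 of lowest p. For the 2 genes of the 10 with the largest change, it names the 2 listed genes of highest correlation. Afp, and other genes outside that rule, were named after their values were seen.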

Additional observations from a re-analysis of the deposited data

How the results depend on the processing

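In mESCs, 7 or 8 of the 10 genes were called under every alternative run, and all genes called ranged from 6765 to 8945. Of the 10 genes, the log2 fold change that changed sign in mESCs was that of Ccna2, which was not called and ranged from -0.046 to 0.087 when libraries were left out. In embryos 0 of the 10 were called under any alternative run, but DESeq2 gave an adjusted p for 7 of them and none for Ccnd2, Cdkn1b and Cdkn2a. Over all embryo genes, DESeq2 called 126, edgeR without a filter 111, with at least 10 counts in every library 23, with a replicate block 171, and with a library left out 4 to 365. Of the other cell cycle genes in embryos, DESeq2 called 1, no filter 1, the replicate block 3, and leaving out a library 0 to 8. The causes were not tested. With a library left out, uncalled embryo log2 fold changes changed sign, from -0.592 to 1.146 for Ccnd1, -0.029 to 0.223 for Ccnd3, -0.216 to 0.008 for Ccna2, -0.367 to 0.045 for Ccnb1, -0.054 to 0.057 for Cdk2, -1.867 to 0.143 for Cdkn1b and -0.684 to 1.014 for Cdkn2a. Cdk2 was at -0.002 with DESeq2 and with its size factors in edgeR, and Cdkn2a at 0.111 with the replicate block.

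Sample titles give a replicate number but not whether samples with the same number were collected together. Their deviations correlated at 0.007 and -0.026 in mESCs and 0.052 in embryos. With 2 KO libraries and 2 pools per embryo group, deviations within those groups mirror each other. These values therefore cannot show whether samples were paired, in mESCs or in embryos. With the replicate block, 8 of the 10 genes were called in mESCs. Asking for 10% of a gene to be covered left 2 genes marked by H3K79me3, in place of 5, and 3.04% of all tested genes in place of 11.2%. For H3K79me2 it left out Ccnd3, covered over 7.49% and 6.36%. Asking instead for peaks with a −log10 q of at least 3 left out Cdkn1b for H3K79me2. Fits that leave 1 library in a group assume that it varies like the other group, and their adjusted p-values were added after seeing the data. Apart from the range of WT levels used to choose background genes for the marks, levels were not compared between genes. No alternative with division by length was run. Depth of the peak lists is unknown, and 2 pools per group limit the embryo comparison.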
